A study of Mus musculus with 6 samples.

Results

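A set of 10 genes of growing axons and immature neurons, out of 25419 genes in the table, was followed in cochlear RNA of young and old C57BL/6 mice. They are Dcx, Gap43, Stmn1, Stmn2, Tubb3, Tubb2b, Sox11, Crmp1, Dpysl3 and Marcksl1, and they were chosen by name, without a threshold on their values. All 10 had transcripts in the table and all 10 reached the minimum mean level of 0.1 FPKM (fragments scaled to transcript length and library size) that was set for testing. The samples were 3 from young mice of 1 month and 3 from old mice of 12 months. All mice were C57BL/6, an inbred strain that loses hearing early in life, and the labels give no transgene or drug for either group. Basilar membrane tissue of the cochlea, the strip that bears the hair cells, was used, and each sample mixed the tissue of 3 mice. With only these 2 ages, a change that was complete soon after 1 month and a change that came late in life cannot be told apart.

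Axons grow by adding tubulin to microtubules in the shaft and by remodelling actin in the growth cone at the tip. Doublecortin (Dcx) and the tubulin isotypes Tubb3 and Tubb2b are microtubule proteins of young neurons, stathmins (Stmn1 and Stmn2) bind free tubulin and promote microtubule disassembly, and the collapsin response mediator proteins Crmp1 and Dpysl3 carry guidance signals to the cytoskeleton. Gap43 and Marcksl1 lie under the growth cone membrane and bind actin regulators or calmodulin, and Sox11 is a transcription factor of neurons that have left the cell cycle. In the cochlea these genes are best known from the spiral ganglion neurons, whose fibres reach the hair cells before hearing begins, and several of them, Tubb3 above all, stay on in mature neurons.

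Old mice had less RNA of Tubb3, Stmn1, Crmp1 and Dpysl3 and more RNA of Marcksl1 than young mice, with an adjusted p below 0.05 for each. The fall was 1.90-fold for Tubb3, 2.04-fold for Crmp1, 1.39-fold for Stmn1 and 1.37-fold for Dpysl3 as ratios of mean FPKM, and the rise of Marcksl1 was 1.36-fold. Thus 5 of the 10 genes passed (limma with Benjamini-Hochberg adjustment over 19465 genes), where 9.45% of all genes tested did, with 3.81% lower and 5.65% higher. The values of the groups did not overlap for 9 of the 10 genes, 7 lower and 2 higher in old mice, against 33.7% of all genes (16.1% lower and 17.6% higher). Gap43 was the gene with overlap in FPKM, and for Dcx the estimated fragments overlapped. The median log2 change of the 10 genes was -0.59, beside 0.01 over all genes tested.

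**Figure D1:**
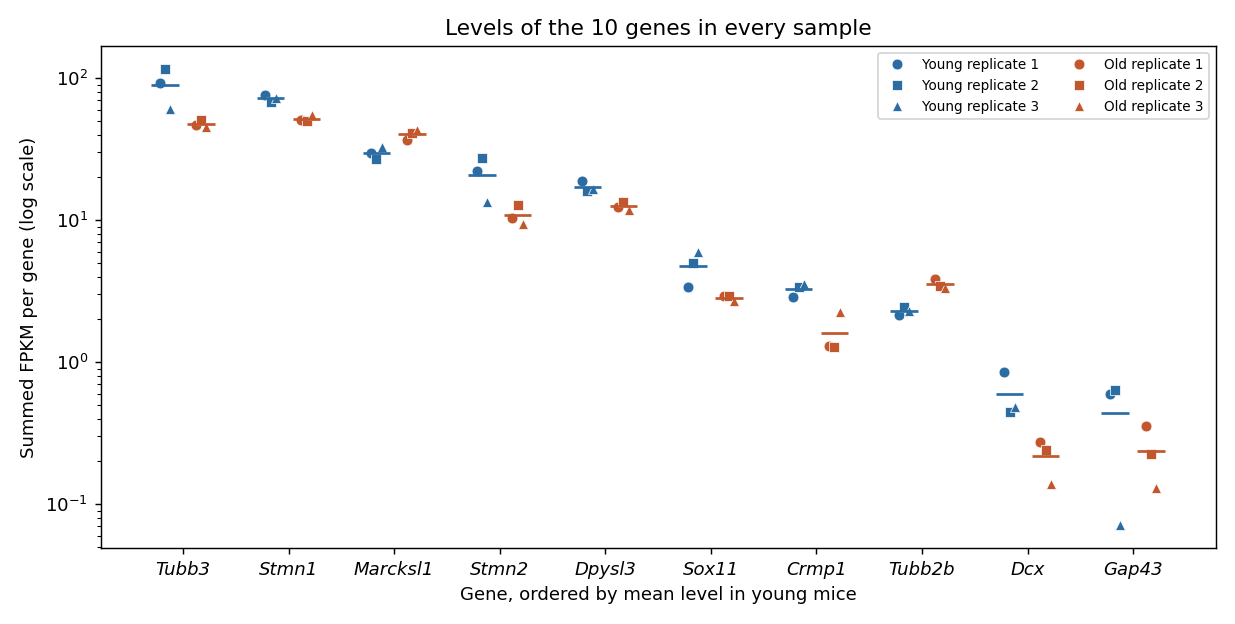
Summed FPKM (log axis) of the 10 genes in the 3 young samples (blue) and the 3 old samples (orange); each symbol is a sample and each short line a group mean. Tubb3 and Stmn1 were the highest in young mice, Dcx and Gap43 lay below 1 FPKM in every sample, and only Tubb2b and Marcksl1 were higher in all old samples.

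The steps between low FPKM values gave an estimated 12560000 to 15670000 fragments per library. At these depths between 93.1% and 94.7% of low values were whole fragments within 0.1. The depths were fitted to make this share high on the same values. The 20% that holds for a depth not fitted is therefore no test of them. 2 young libraries stood apart, each for other genes. Of 18 proliferation markers, 17 were higher in Young replicate 1 than in the other young samples. Dcx, Stmn1 and Dpysl3 were also highest there among the young samples, while Tubb2b, Sox11 and Crmp1 were lowest there. Of 23 markers of mature neurons, 22 were lowest in Young replicate 3 among the young samples, and their mean log2(FPKM + 0.1) was 4.90, 5.09 and 4.33 in Young replicates 1, 2 and 3, against 3.94, 4.03 and 3.96 in the old samples. Stmn2, Tubb3 and Gap43 were the 3 of the 10 genes that were also lowest in Young replicate 3 among the young samples. Sox11, Crmp1 and Marcksl1 went the other way and were highest in it. In bulk tissue, fewer neurons in a sample and less RNA per neuron cannot be told apart.

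The number of passing genes depended on each sample. It was 4 when Young replicate 3 was left out, 2 when Young replicate 1 and 1 when Young replicate 2 was. Over all genes these 3 fits called 1771, 741 and 332, in place of 1840 with all samples. Leaving out an old sample gave 0 for replicate 1, 0 for replicate 2 and 2 for replicate 3, the last with 364 calls over all genes. With all samples, 9 of the 10 genes had an unadjusted limma p below 0.05, against 27.8% of all genes. Without Old replicate 1 this number was 9 and without Old replicate 2 it was 8, while the calls over all genes fell from 1840 to 397 and 62. In each of these fits 8 of the 10 log2 changes were below 0.

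In young mice the order by mean FPKM was Tubb3, Stmn1, Marcksl1, Stmn2, Dpysl3, Sox11, Crmp1, Tubb2b, Dcx and Gap43. Neighbours in this order whose 3 values overlapped were Tubb3 and Stmn1, Marcksl1 and Stmn2, Stmn2 and Dpysl3, Sox11 and Crmp1, and Dcx and Gap43. In old mice Stmn1 stood first and Tubb3 second, with overlapping values, and Tubb2b had moved above Sox11 and Crmp1.

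The tubulins of the set differed in direction. Tubb3, the class III beta-tubulin of neurons, lies on chromosome 8 from 123411424 to 123422015 (plus strand, GRCm38). Its level was 93.1, 116 and 60.8 FPKM in the young samples and 46.5, 50.5 and 45.1 FPKM in the old samples. All old values lay below the lowest young value, that of Young replicate 3. The log2 change was -0.88 ± 0.21 (SE, n = 3 and 3), with a limma adjusted p of 0.0452. Leaving out any sample but Young replicate 3 raised that p to between 0.101 and 0.116, and without Young replicate 3 it was 0.00699 with a log2 change of -1.14.

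Tubb2b, an isotype of dividing precursors and young neurons, lies on chromosome 13 from 34126748 to 34130466 (minus strand). It was at 2.16, 2.43 and 2.31 FPKM in young mice and at 3.85, 3.46 and 3.36 FPKM in old mice, so that every old sample was above every young one. The log2 change of 0.61 ± 0.15 had an adjusted p of 0.0524 in limma and did not pass the threshold. These levels rested on about 54.3 to 63.7 fragments in a young library and 85.6 to 103 in an old one.

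Tubb2b has a near copy, Tubb2a. The coding sequences of both genes are 1335 nt long and differ at 47 positions, an identity of 96.5%, while Tubb3 and Tubb2b share 83.4%. The end of the coding sequence is where many tubulin isotypes differ most in protein. The last 60 coding bases before the stop codon are printed from the GENCODE M21 transcripts (GRCm38). For Tubb2b and Tubb2a these bases encode the same amino acids. Capitals in the Tubb2b and Tubb2a lines mark the 3 bases at which they differ from each other. Capitals in the Tubb3 line mark the 35 bases that differ from Tubb2b, counted back from the stop codon without gaps. The Tubb3 coding sequence is longer, at 1350 nt, so these 35 need not pair matching codons.
Tubb2b: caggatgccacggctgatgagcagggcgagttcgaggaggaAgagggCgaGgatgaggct
Tubb2a: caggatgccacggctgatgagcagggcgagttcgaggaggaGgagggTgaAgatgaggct
Tubb3: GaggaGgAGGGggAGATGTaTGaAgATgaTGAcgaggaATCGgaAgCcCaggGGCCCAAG

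Of all stretches of 150 nt, the read length, in the main Tubb2b transcript, 20.1% also occur in Tubb2a or its pseudogene Tubb2a-ps2, and 27.9% of those of Tubb2a occur in Tubb2b or that pseudogene. The split of reads between these genes is therefore uncertain. Tubb2a was far more abundant, at 42.6, 46.1 and 37.0 FPKM in young mice and 30.6, 31.8 and 33.2 FPKM in old mice. It fell, with a log2 change of -0.39 and an adjusted p of 0.0458 in limma, while Tubb2b was higher in all old samples. The log2 ratio of Tubb2b to Tubb2a was -4.24, -4.19 and -3.94 in the young samples and -2.96, -3.16 and -3.27 in the old samples. The difference of 1.00 came with an exact permutation p of 0.1 (two-sided), the smallest p that 3 samples against 3 allow. No 150-nt stretch of Tubb3 occurs in another gene.

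As a share of the summed FPKM of 7 beta-tubulin genes, Tubb3 took 19.7%, 22.6% and 14.4% in young mice and 12.2%, 11.9% and 10.7% in old mice. Its share was lower in every old sample. Tubb2b took 0.459% to 0.545% in young and 0.795% to 1.01% in old mice, also without overlap. Tubb4b, which is found in many cell types and in cilia, made up the largest part, 47.3% ± 4.02 in young and 52.5% ± 1.93 in old mice (SD, n = 3 each), with overlapping values. These shares were computed after the values had been seen.

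**Figure D2:**
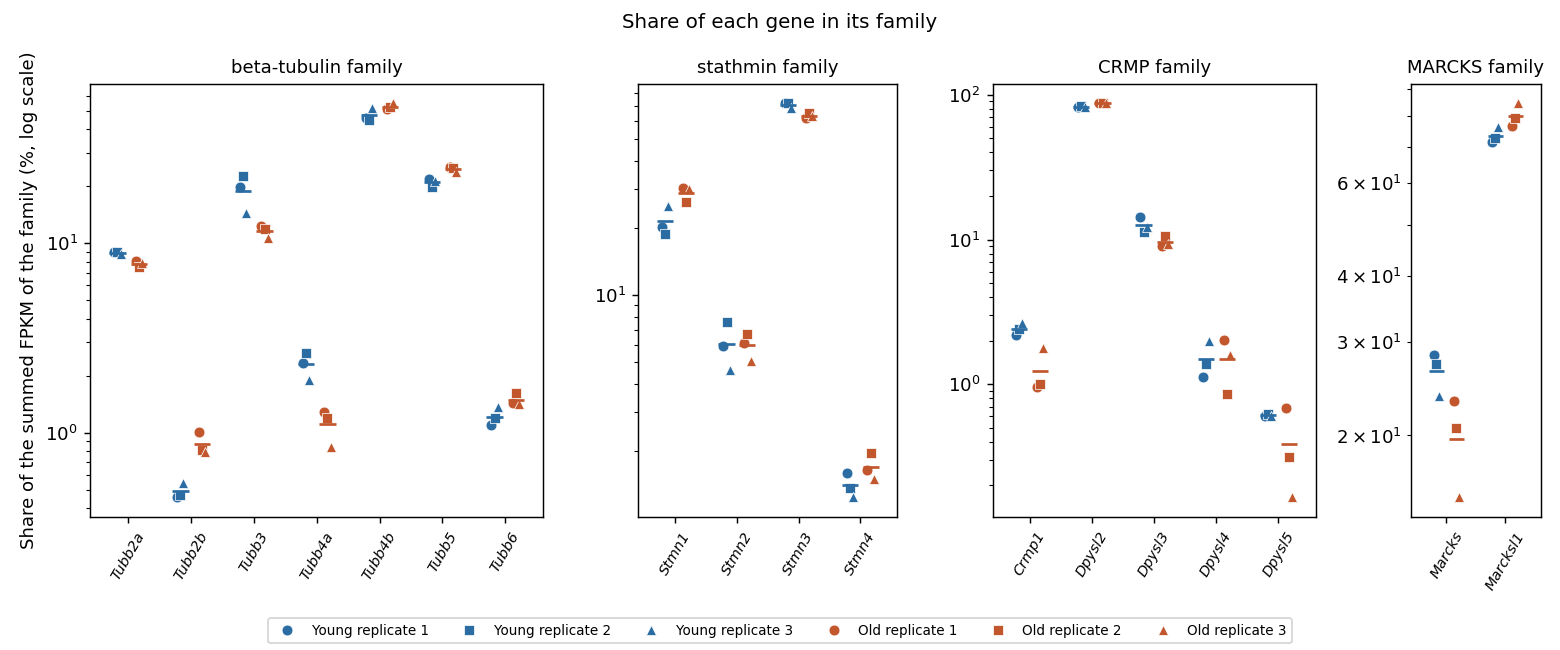
Share (%, log axis) of each gene in the summed FPKM of its family in each sample, for beta-tubulins, stathmins, collapsin response mediator proteins (CRMP) and the MARCKS pair; symbols are samples, blue young and orange old, and lines are means. Tubb3, Crmp1 and Dpysl3 took lower shares in all old samples, and Tubb2b, Stmn1 and Marcksl1 higher ones.

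Of the stathmins in the set, Stmn1 passed the test and Stmn2 did not. Stmn1, the form also found outside neurons and in dividing cells, lies on chromosome 4 from 134468320 to 134473843 (plus strand). Its level was 75.7, 68.2 and 72.4 FPKM in young mice and 51.0, 49.6 and 54.8 FPKM in old mice. The samples of each group lay close together, and the groups were well apart. Its log2 change was -0.48 ± 0.07 (SE), and its adjusted p of 0.0163 was the lowest among the 10 genes in limma. That p rose to 0.0524 without Old replicate 1 and to 0.0681 without Old replicate 2, and stayed below 0.05 without any other sample.

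A limit of Stmn1 is its sequence: 16.6% of its 150-nt stretches also occur in the gene Gm11223, and 66 of its 1060 bases overlap an exon of Gm23634 on the same strand. Nearly all of its level, 99.2% in young and 98.8% in old mice, was given to the transcript ENSMUST00000030636. This transcript was the 1 of 15 tested transcripts of the 10 genes that passed in the fit of 38764 transcripts (adjusted p = 0.0476, limma), where 0.748% of all transcripts passed (0.199% lower) and 24.6% had groups without overlap. Of the 15, 8 had an unadjusted limma p below 0.05, against 17% of all transcripts.

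Stmn2, also called SCG10, is the growth cone stathmin of neurons and lies on chromosome 3 from 8509360 to 8561606 (plus strand). It was at 22.1, 27.4 and 13.3 FPKM in young mice and at 10.3, 12.7 and 9.34 FPKM in old mice. The lowest young value, in Young replicate 3, was close to the highest old value. The log2 change of -0.90 ± 0.26 did not pass, with an adjusted p of 0.0692. Without Young replicate 3 it was -1.19 with an adjusted p of 0.0132, and it did not pass when any other sample was left out.

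Stmn3, a neuronal stathmin that is not among the 10 genes, was the most abundant of the family, at 271, 261 and 199 FPKM in young and 104, 124 and 117 FPKM in old mice. It fell by 1.07 on the log2 scale (adjusted p = 0.0111, limma). The ratio of Stmn1 to Stmn3 was therefore higher in old mice, by 0.59 on the log2 scale and without overlap (exact permutation p = 0.1). The ratio of Stmn2 to Stmn3 overlapped between the ages, with a difference of 0.17 on the log2 scale (exact permutation p = 0.7). Of the summed FPKM of the 4 stathmin genes, Stmn1 made up 21.4% ± 3.31 in young and 28.7% ± 2.27 in old mice, and Stmn2 6.03% ± 1.48 and 5.97% ± 0.820 (SD, n = 3 each).

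Dcx, the microtubule protein of migrating and newborn neurons, was scarce. It lies on the X chromosome from 143855842 to 143933311 (minus strand), and its level was 0.857, 0.448 and 0.484 FPKM in young mice and 0.276, 0.242 and 0.140 FPKM in old mice. These values correspond to about 50.6, 39.9 and 23 fragments in the young and 27, 22 and 14 fragments in the old libraries. The groups did not overlap in summed FPKM, but they did in fragments, with 23 in Young replicate 3 and 27 in Old replicate 1. The most abundant transcript by estimate, ENSMUST00000033642, overlapped in FPKM as well (log2 change -0.24). The log2 change of the gene, -1.10 ± 0.42, had an adjusted p of 0.138 (limma). The 4 transcripts of Dcx in the table were each below 0.4 FPKM in all samples, so that their order was not determined at this depth. Dclk1, its paralogue with a kinase domain, was at 180 to 258 FPKM in young and 178 to 223 FPKM in old mice and did not pass (log2 change -0.16, adjusted p = 0.518).

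Gap43, the classical growth cone protein, was near the lower limit. Its only transcript in the table, on chromosome 16 from 42248442 to 42340651 (minus strand), was at 0.599, 0.638 and 0.0709 FPKM in young and 0.353, 0.224 and 0.131 FPKM in old mice. That is about 9, 10 and 1 fragments in the young and 5, 4 and 2 fragments in the old libraries. A difference was not detectable at this depth (log2 change -0.46 ± 0.66, 95% interval -2.01 to 1.09, adjusted p = 0.691). Basp1, a growth cone protein of like function, was measured better, at 8.16, 9.07 and 6.58 FPKM in young and 4.55, 4.88 and 3.47 FPKM in old mice, and fell by 0.87 on the log2 scale (adjusted p = 0.0312, limma).

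Marcksl1, a protein kinase C substrate that binds calmodulin and actin at the membrane, was the gene that rose. It lies on chromosome 4 from 129513581 to 129515985 (plus strand) and was at 29.6, 27.0 and 32.7 FPKM in young mice and 36.5, 41.4 and 43.5 FPKM in old mice. All old samples were above all young ones. The log2 change was 0.44 ± 0.10 (SE) with an adjusted p of 0.0394 in limma. Without Young replicate 3 the p was 0.0333, and it lay between 0.0608 and 0.129 when any other sample was left out. Its relative Marcks did not pass, at 11.8, 10.1 and 10.2 FPKM in young and 11, 10.8 and 7.85 FPKM in old mice, and the log2 ratio of Marcksl1 to Marcks was higher in old mice by 0.56, without overlap (exact permutation p = 0.1).

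**Figure D3:**
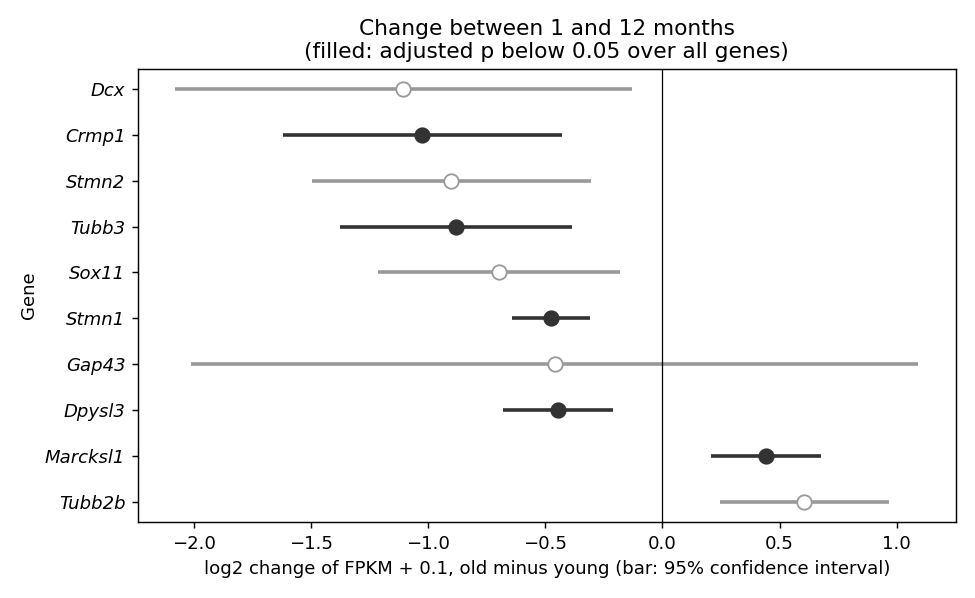
Change of log2(FPKM + 0.1) from young to old mice for each of the 10 genes, with its 95% confidence interval from limma (n = 3 and 3); filled points have an adjusted p below 0.05 over all genes tested. Stmn1, Tubb3, Crmp1 and Dpysl3 lie below 0 and Marcksl1 above, and the interval of Gap43, -2.01 to 1.09, is the widest.

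Both collapsin response mediator genes of the set fell. Crmp1, on chromosome 5 from 37241940 to 37292133 (plus strand), was at 2.88, 3.40 and 3.56 FPKM in young and 1.31, 1.27 and 2.25 FPKM in old mice. Old replicate 3 was the highest old sample but stayed below every young one. The log2 change was -1.02 ± 0.25 with an adjusted p of 0.0486 in limma. It remained below 0.05 without Old replicate 3 (0.0476) and was 0.0858 to 0.147 without any other sample.

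Crmp1 has transcripts from several starts. The long form ENSMUST00000114158, which begins at 37242080, was at 1.05, 2.06 and 1.28 FPKM in young and 0.528, 1.01 and 0.294 FPKM in old mice, without overlap. It held 44.6% of the level of the gene in young and 38.0% in old mice, and its log2 change of -1.21 had an adjusted p of 0.302 over all transcripts (limma). The form ENSMUST00000202434, of 3 exons and from the first start of the gene at 37241940, was at 0.920, 0.558 and 1.68 FPKM in young mice and at below 0.001, 0.263 and 1.01 FPKM in old mice, with overlap. It held 32.1% of the level in young and 26.3% in old mice. The form ENSMUST00000031004, from the start at 37245764, was at 0.871, 0.785 and 0.597 FPKM in young mice and at 0.778, below 0.001 and 0.944 FPKM in old mice. These values overlapped too, and the form held 22.9% of the level in young and 35.7% in old mice. The division of about 44.0 to 111 fragments per library among these forms is an estimate of the authors' software.

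The promoter sequences of Crmp1, Tubb3 and Marcksl1 are shown because the first 2 genes fell and the third rose, and because 2 of the starts of Crmp1 have a window. They are from RefSeq (GRCm38.p6), read on the strand of the gene, and end before the first transcribed base in GENCODE. For Crmp1 these bases are the starts of ENSMUST00000202434 and ENSMUST00000031004, and the long form begins a little after the first. Capitals mark the GC box, the letters GGGCGG or their reverse complement.
Crmp1 first start, chr5:37241808-37241939, plus strand: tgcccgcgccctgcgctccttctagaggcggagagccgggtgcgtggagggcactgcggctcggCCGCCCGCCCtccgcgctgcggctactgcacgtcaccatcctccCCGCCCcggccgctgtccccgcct
Crmp1 second start, chr5:37245514-37245763, plus strand: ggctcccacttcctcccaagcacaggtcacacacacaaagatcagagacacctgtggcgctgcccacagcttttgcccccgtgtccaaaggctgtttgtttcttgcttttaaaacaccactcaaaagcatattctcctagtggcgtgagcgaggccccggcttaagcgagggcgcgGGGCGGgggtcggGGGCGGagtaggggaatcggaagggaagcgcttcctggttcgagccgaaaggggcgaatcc
Tubb3, chr8:123411303-123411423, plus strand: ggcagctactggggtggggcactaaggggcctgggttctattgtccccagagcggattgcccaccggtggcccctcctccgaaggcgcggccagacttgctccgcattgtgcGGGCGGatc
Marcksl1, chr4:129513331-129513580, plus strand: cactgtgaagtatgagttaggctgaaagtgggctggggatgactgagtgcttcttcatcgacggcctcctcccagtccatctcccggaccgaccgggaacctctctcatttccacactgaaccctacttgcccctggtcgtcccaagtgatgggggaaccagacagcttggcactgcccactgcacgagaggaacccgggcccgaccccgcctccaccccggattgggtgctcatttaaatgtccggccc

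RefSeq windows of 300 bases, 250 before and 50 after a start, were at hand for 5 of the 10 genes (Crmp1, Dcx, Marcksl1, Sox11 and Tubb3), with 7 windows in all. On both strands, GGGCGG occurred in 5 of the 7, against 35.7% of 32851 windows of all genes, and CCAAT in 5 of the 7, against 37.4%. Both windows of Crmp1 are among the 5 with GGGCGG. Outside Dcx, the bases before the start were 58% to 77.3% G or C, and the median over all whole windows was 52.7%. TATAAA was present in 2 of the 7, both at the starts of Dcx, against 13.6%. The E-box CANNTG was found in 3 of the 7, against 72.3%. Its forms CAGCTG and CATCTG were in 1 (16.3% of all windows) and 0 (17.2%). ACAAAG was in 3 (18.7%), TGACG in 1 (20.8%), CAGCACC in 1 (7.14%) and GGACAGC in 2 (6.56%). The windows of Dcx overlap each other. These matches are a description of letters, and in the Marcksl1 window the GC boxes lie across and after the start, beyond the bases printed.

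Dpysl3, also called CRMP4, lies on chromosome 18 from 43320984 to 43438286 (minus strand). It was at 18.9, 16.0 and 16.6 FPKM in young and 12.3, 13.5 and 11.8 FPKM in old mice, without overlap. The log2 change was -0.45 ± 0.10 with an adjusted p of 0.0389 in limma, and leaving out any sample raised it to between 0.0600 and 0.103. Both of its main forms were lower in all old samples. The long form ENSMUST00000121805 went from a mean of 12.47 to 9.53 FPKM and the form ENSMUST00000025379 from 4.67 to 3.01 FPKM, with adjusted p values of 0.127 and 0.202 over all transcripts in limma.

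Dpysl2, the family member of adult neurons and other cells, did not pass, at 108, 119 and 112 FPKM in young and 118, 112 and 111 FPKM in old mice (log2 change 0.01, adjusted p = 0.946, limma). Against Dpysl2 in the same sample, Crmp1 was lower in old mice by 1.03 and Dpysl3 by 0.46 on the log2 scale, each without overlap (exact permutation p = 0.1). Crmp1 made up 2.41% ± 0.229 of the summed FPKM of the 5 family genes in young and 1.24% ± 0.457 in old mice. The share of Dpysl3 was 12.6% ± 1.49 and 9.65% ± 0.781 (SD, n = 3 each).

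Sox11, the transcription factor of the set, is a gene of 1 exon on chromosome 12 from 27334264 to 27342574 (minus strand). It was at 3.36, 5.02 and 5.96 FPKM in young mice and 2.92, 2.90 and 2.68 FPKM in old mice. The young samples were spread widely and the old ones were close together, without overlap. The log2 change of -0.70 ± 0.22 did not pass (adjusted p = 0.0908, limma), and without Young replicate 1 it was -0.93 with an adjusted p of 0.0434. Its relative Sox4 did not pass either (5.67, 5.78 and 6.00 FPKM in young and 5.16, 4.75 and 6.03 FPKM in old mice), and the log2 ratio of Sox11 to Sox4 overlapped between the ages (difference -0.56, exact permutation p = 0.2).

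Of the 11 ratios of a gene to its paralogue, 7 had groups without overlap, all at the smallest exact permutation p of 0.1, where no adjustment can bring a p below 0.05. The share was 33.7% over all single genes and was not computed for ratios of other gene pairs. Several of the 11 ratios share a gene, so they are not independent. Besides those given above, the 7 ratios without overlap included Dcx to Dclk1, lower by 0.95, and Tubb3 to Tubb4a, higher by 0.36. Tubb4a, a beta-tubulin of neurons and myelinating glia, fell by 1.24 on the log2 scale (adjusted p = 0.0233, limma), from 11.1, 13.6 and 8.05 FPKM to 4.88, 5.07 and 3.55 FPKM. The ratios with overlap were Stmn2 to Stmn3, Stmn2 to Stmn1, Sox11 to Sox4 and Gap43 to Basp1, the last of which turned from 0.41 to -0.15 without Young replicate 3. The Dcx ratio rested on the low values of Dcx: its difference was -0.22 with a pseudocount of 1 in place of 0.1 (exact permutation p = 0.3) and -0.22 with the most abundant transcript only (exact permutation p = 0.8).

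The next comparison set the 10 genes against mature neuron markers in the same sample. The level of a neuronal gene in this tissue can move with the neuronal RNA that the sample holds. Not all of the 10 genes are confined to neurons, Stmn1 for one. Of the 23 markers, 15 fell, 1 rose (Sncg, gamma-synuclein) and the median log2 change was -1.03. The 16 calls became 6, 6 and 19 without Young replicate 1, 2 or 3 and 4, 0 and 2 without Old replicate 1, 2 or 3 (20 at an unadjusted limma p below 0.05 without Old replicate 2). Vsnl1, a calcium sensor of neurons, fell by 1.58 and Nefm, a neurofilament, by 1.30 on the log2 scale. Snap25, a protein of synaptic vesicle release and the most abundant of the list, went from 335, 439 and 210 FPKM to 135, 144 and 135 FPKM. The mean of the list on the log2 scale was lower in old mice by 0.79, without overlap (exact permutation p = 0.1).

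Relative to this mean, only Tubb2b and Marcksl1 differed between the ages without overlap. For Marcksl1 the log2 level relative to the markers was -0.01, -0.33 and 0.71 in young mice and 1.25, 1.34 and 1.48 in old mice, a difference of 1.24 (exact permutation p = 0.1). For Tubb2b it was -3.72, -3.75 and -3.06 in young and -1.96, -2.20 and -2.17 in old mice, a difference of 1.40 (exact permutation p = 0.1). The fall of the marker mean itself, by 0.79, is part of both differences. The other 8 genes overlapped. Tubb3 was at 1.64, 1.78 and 1.6 in young and 1.6, 1.63 and 1.54 in old mice, a difference of -0.09 (exact permutation p = 0.2), and Stmn2 differed by -0.11 (exact permutation p = 0.5). The 3 values of a group do not show that these genes moved alike.

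The same held for Stmn1 (difference 0.32, exact permutation p = 0.4), Dpysl3 (0.35, p = 0.3 by the same exact test), Crmp1 (-0.23, exact p = 0.5), Sox11 (0.10, exact p = 0.8), Dcx (-0.31, exact p = 0.4) and Gap43 (0.33, exact p = 0.7). None of these 6 genes kept its sign under all alternatives. Dcx turned to 0.37 with a pseudocount of 1 and to 0.60 with the most abundant transcript, Crmp1 to 0.02 with a pseudocount of 1 and 0.05 without Young replicate 3, Gap43 to -0.13 without Young replicate 3, and Sox11 to -0.20 without Young replicate 1 and -0.01 without Young replicate 2. Against the glial markers described next, Stmn1 (-0.06), Dpysl3 (-0.03), Gap43 (-0.05) and Sox11 (-0.28) were below 0. For Stmn1 and Dpysl3 this change of reference was the only alternative with a value below 0. Without Young replicate 3, the young library with the lowest neuron markers, 6 of the 10 genes were without overlap against the neuron markers in place of 2. Of these 6, Tubb3 was lower in old mice (-0.12). Tubb2b, Marcksl1, Dpysl3, Stmn1 and Sox11 were higher, by 0.49 to 1.62. With a sample fewer, groups are also without overlap more easily.

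Against the mean of 16 markers of Schwann cells and satellite glia, which was lower in old mice by 0.41, Tubb3 was at 0.86, 1.06 and 0.64 in young and 0.39, 0.45 and 0.33 in old mice, lower in every old sample (difference -0.46, exact permutation p = 0.1). Tubb2b (1.02) and Marcksl1 (0.86) were again higher without overlap, and the other 7 genes overlapped.

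**Figure D4:**
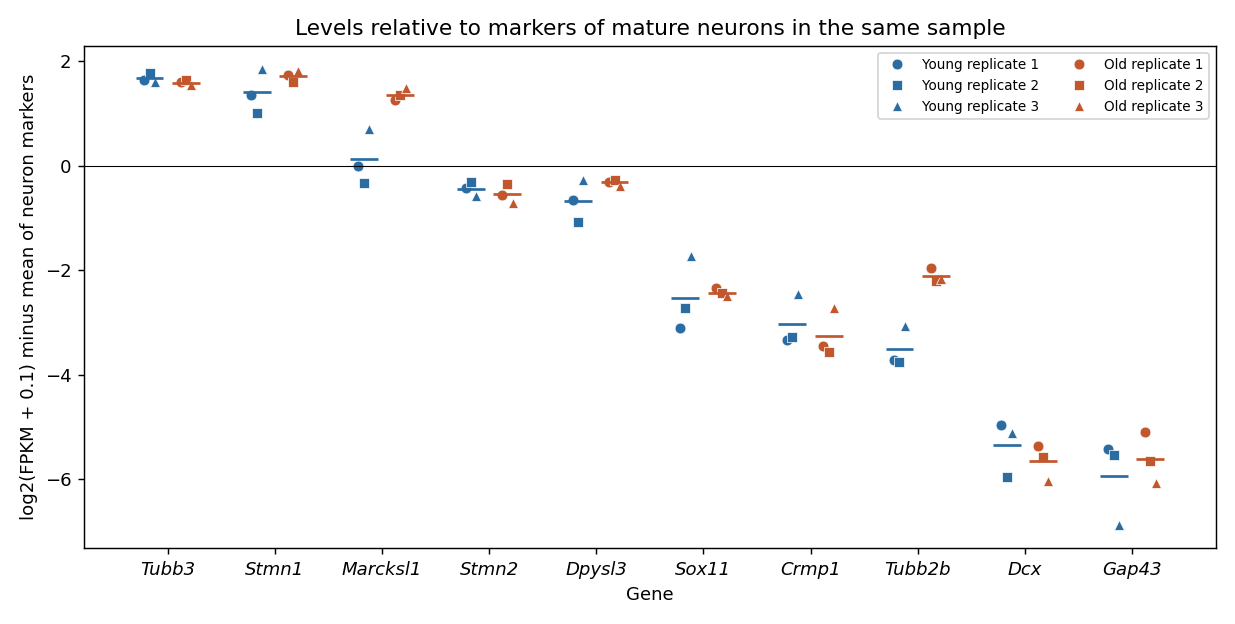
Log2(FPKM + 0.1) of each of the 10 genes minus the mean of 23 mature neuron markers in the same sample; symbols are samples, blue young and orange old, and lines are means. Marcksl1 and Tubb2b were higher in all old samples, while the values of the other 8 genes, Tubb3 and Stmn2 among them, overlapped between the ages.

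Other genes of the same processes were taken from fixed lists. Of 19 microtubule proteins of neurites, 5 fell and 0 rose with an adjusted p below 0.05 (10 lower and 1 higher at an unadjusted limma p below 0.05), with a median log2 change of -0.30. The 5 calls became 1, 2 and 7 without Young replicate 1, 2 or 3 and 1, 0 and 1 without Old replicate 1, 2 or 3 (9 at an unadjusted limma p below 0.05 without Old replicate 2). The 5 were Tubb4a, Stmn3, Tubb2a, Kif5c and Map1a, the last a microtubule protein of mature axons and dendrites that fell by 1.05. Tubb4b, the most abundant of the list at 215 to 229 FPKM in young and 193 to 230 FPKM in old mice, did not pass (log2 change -0.05, adjusted p = 0.726). The list shares Stmn3 with the mature neuron markers.

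Of 16 growth cone and CRMP proteins, 5 fell and 0 rose (8 lower and 0 higher at an unadjusted limma p below 0.05), with a median of -0.37. The 5 calls became 1, 0 and 5 without Young replicate 1, 2 or 3 and 0, 0 and 0 without Old replicate 1, 2 or 3 (7 to 9 at an unadjusted limma p below 0.05 where 0 passed). Among the genes that passed, the largest changes were those of Evl, an actin regulator at filopodia, from 7.16, 8.89 and 5.55 FPKM to 3.05, 3.19 and 2.62 FPKM (log2 change -1.24), Cap2, an actin monomer binding protein (-1.08), and Basp1. Enah, a relative of Evl and the most abundant of the list, was at 185 to 231 FPKM in young and 218 to 262 FPKM in old mice and did not pass (log2 change 0.20, adjusted p = 0.253, limma).

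Of 26 axon guidance and adhesion genes, 3 fell and 1 rose, with a median of -0.14. At an unadjusted limma p below 0.05, 5 were lower and 2 higher, near the share of 27.8% of all genes. The 4 calls became 1, 0 and 5 without Young replicate 1, 2 or 3 and 1, 0 and 0 without Old replicate 1, 2 or 3 (5 to 7 at an unadjusted limma p below 0.05 where 0 passed). Cntn2, an axonal adhesion protein also found at nodes, fell by 1.08, Epha4, an ephrin receptor, by 0.64 and Cntn1 by 0.55 on the log2 scale. Chl1, a cell adhesion protein of the L1 family, rose by 1.49 (adjusted p = 0.0335, limma), from 1.18, 1.25 and 0.642 FPKM to 3.32, 2.13 and 3.58 FPKM. Cd24a, the most abundant, was lower in all old samples without passing (adjusted p = 0.0511).

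Among 23 transcription factors and RNA-binding proteins of immature neurons, 17 reached the minimum level, and of these 8 fell and 0 rose (8 and 0 also at an unadjusted limma p below 0.05), with a median of -0.45. The 8 calls became 0, 0 and 7 without Young replicate 1, 2 or 3 and 0, 0 and 1 without Old replicate 1, 2 or 3 (8 at an unadjusted limma p below 0.05 where 0 passed). The largest changes were those of Pou4f1, a sensory neuron factor, from 1.10, 1.80 and 1.37 FPKM to 0.363, 0.520 and 0.392 FPKM (log2 change -1.52), and of Elavl3 (-1.14) and Elavl2 (-1.08), RNA-binding proteins that mature neurons keep. Isl1, Prox1, Mllt11, Elavl4 and Tagln3 were the others, and Prox1 is also in the list of supporting cell markers. Ebf1, the most abundant, did not pass (log2 change 0.01). The 6 genes under the minimum included Neurog1, Neurod1, Nhlh1 and Insm1, factors that define newly formed neurons, whose group means did not exceed 0.0708 FPKM. No gene of the 17 tested proliferation markers passed, in either direction, at the adjusted or at the unadjusted limma p of 0.05. Mki67, a marker of cycling cells named after its values were seen, was at 1.43, 0.140 and 0.0982 FPKM in young and 0.496, 0.352 and 0.356 FPKM in old mice. Without Young replicate 1, which was high for these genes, 0 passed and 2 had an unadjusted limma p below 0.05, both with higher levels in old mice. Pcna, the highest of them, was at 55.6 to 60.4 FPKM in young and 55.0 to 59.5 FPKM in old mice.

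Of 16 axon injury genes tested, 6 rose and 0 fell (7 higher and 1 lower at an unadjusted limma p below 0.05), with a median log2 change of 0.52. The 6 calls became 4, 3 and 7 without Young replicate 1, 2 or 3 and 2, 1 and 5 without Old replicate 1, 2 or 3. Atf3, a transcription factor of injured neurons and of other stressed cells, went from 5.50, 3.87 and 2.51 FPKM to 18.7, 14.1 and 11.8 FPKM (log2 change 1.93, adjusted p = 0.0167, limma). Cebpd rose by 1.72 and Tnfrsf12a, the Fn14 receptor, by 1.43, and Hspb1, the most abundant, did not pass (log2 change 0.04). Sprr1a, a gene of regenerating sensory neurons, had overlapping levels below 1 FPKM in both group means, 0.150 and 0.392 FPKM.

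**Figure D5:**
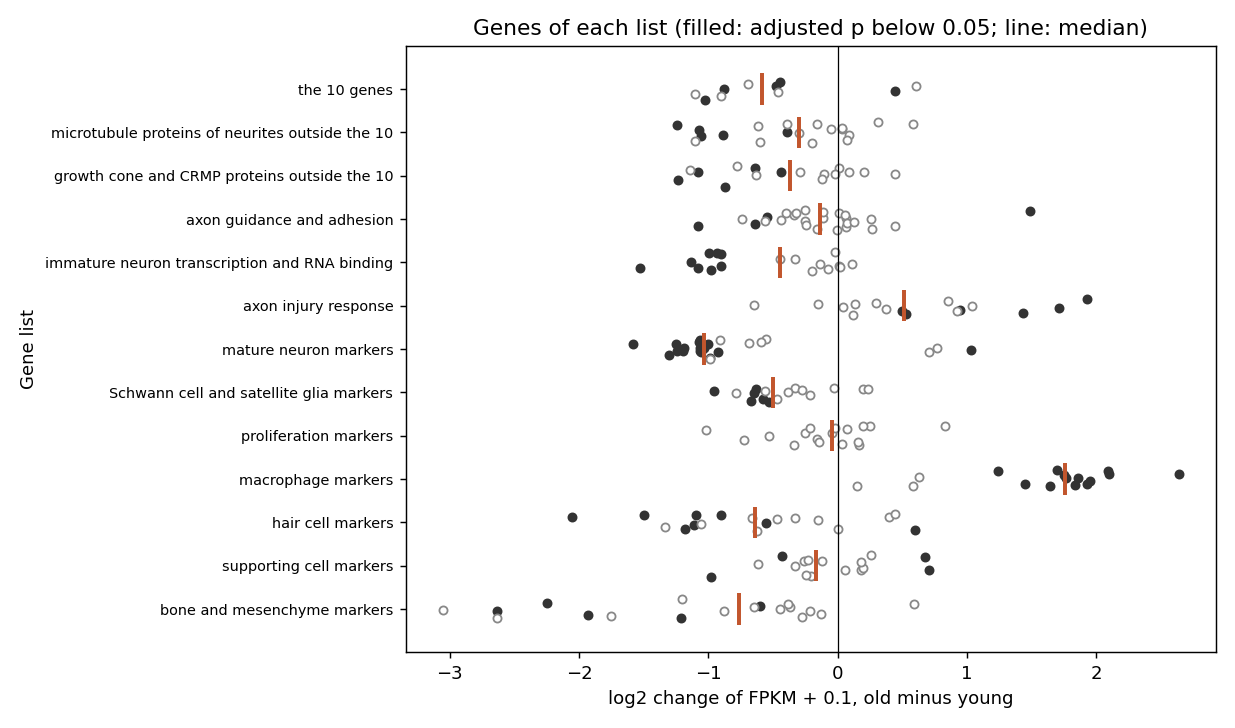
Log2 change from young to old mice of each tested gene (points; filled where the adjusted p was below 0.05 over all genes) in the 10 genes and 12 further lists, with the median of each list as an orange line. The 10 genes have a median of -0.59, beside -1.03 for mature neuron markers, 0.52 for axon injury genes and 1.76 for macrophage markers.

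Markers of other cell types also moved, and their part in the changes of the 10 genes was not tested. Of the 16 Schwann cell and satellite glia markers 6 fell and 0 rose (9 and 0 at an unadjusted limma p below 0.05), with a median of -0.50 and summed levels of 4170 to 5044 FPKM in young and 3612 to 3985 FPKM in old samples. The 6 calls became 0, 1 and 9 without Young replicate 1, 2 or 3 and 0 without each old sample (6 or 7 at an unadjusted limma p below 0.05 where 0 passed). Ncmap and Drp2, genes of myelinating Schwann cells, fell by 0.67 and 0.65. S100b, the most abundant of the list, did not pass (adjusted p = 0.166).

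Macrophage markers were higher, with 13 of 16 risen and 0 fallen (14 and 0 at an unadjusted limma p below 0.05) and a median of 1.76. Their summed level was 171 to 273 FPKM in young and 888 to 980 FPKM in old samples. The 13 calls became 2 without Old replicate 2, 8 without Old replicate 3 and 10 to 12 without another sample. Lyz2, a lysozyme, rose by 2.64, Aif1 by 2.1 and the protease gene Ctss by 2.09 on the log2 scale.

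Hair cell markers had 7 of 18 fallen and 1 risen, with a median of -0.64 and summed levels of 910 to 1138 FPKM in young and 516 to 590 FPKM in old samples. The 8 calls became 4, 4 and 7 without Young replicate 1, 2 or 3 and 3, 0 and 3 without Old replicate 1, 2 or 3 (12 at an unadjusted limma p below 0.05 without Old replicate 2). Gfi1, a hair cell transcription factor, fell by 2.05, Chrna9, a receptor subunit for the efferent transmitter, by 1.5 and Ocm, oncomodulin of outer hair cells, by 1.18. Calb2, calretinin of inner hair cells and neurons and the most abundant of the list, fell by 1.11.

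Supporting cell markers had 2 lower and 2 higher of 16 and summed levels of 3776 to 4399 and 4340 to 4655 FPKM. Their 4 calls became 0 to 2 without any sample but Young replicate 3 (6 at an unadjusted limma p below 0.05 without Old replicate 2, where 0 passed). Otog and Otoa, genes of the extracellular membranes of the inner ear, rose by 0.71 and 0.68, Prox1 fell by 0.98, and S100a1, the most abundant, did not pass (log2 change 0.20, adjusted p = 0.274, limma). The bone and mesenchyme list had 5 of 18 fallen and 0 risen (14 lower and 1 higher at an unadjusted limma p below 0.05), with summed levels of 16072 to 17875 FPKM in young and 12581 to 12948 FPKM in old samples. These 5 calls became 3, 8 and 4 without Young replicate 1, 2 or 3 and 1 without each old sample. Ibsp of bone matrix fell by 2.63, Col3a1 by 2.25, Col1a2 by 1.93 and Coch, the most abundant, by 0.60.

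The 5 genes whose levels across the 6 samples were most like the mean of the 8 genes of the set with at least 1 FPKM were Synm, Xk, Mturn, Smad4 and Fa2h, with Pearson correlations of 0.998, 0.997, 0.997, 0.997 and 0.995 among 14977 genes. These are descriptions over 6 samples that share the step between the ages. Synm, the intermediate filament protein synemin, was at 32.3, 36.1 and 31.6 FPKM in young and 21, 22.9 and 22.6 FPKM in old mice. Fa2h, an enzyme for lipids of myelin, went from 7.03, 8.38 and 7.23 FPKM to 2.13, 3.08 and 2.72 FPKM, and Smad4 only from 34.9, 35.1 and 34.9 FPKM to 32.5, 32.8 and 32.8 FPKM.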

How the data were processed

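Cochlear basilar membrane tissue of C57BL/6 mice was analysed, with 3 young (1 month) and 3 old (12 months) samples of 3 mixed mice each. From strand-specific libraries and pairs of 150-nt reads aligned to GRCm38, the authors deposited FPKM per transcript and sample. CASAVA 1.8, TopHat2 2.0.9, Cufflinks 2.1.1 and Cuffdiff 2.1.1 are named in the submitters' processing notes. The annotation release and the scaling between libraries are not given in the sources used here. FPKM were not scaled further.

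Of 56671 transcripts, 55275 were matched to GENCODE M21 and 992 carried the authors' own prefix for lncRNAs. A further 404 were unmatched and left out of the gene sums. FPKM were summed per gene, and genes or transcripts with a mean of at least 0.1 FPKM were compared in R 4.3.3 by the linear models of limma 3.58.1 (moderated with a variance trend) on log2(FPKM + 0.1), two-sided, with age as the only term and p adjusted by Benjamini-Hochberg over everything tested (threshold 0.05). A fold change on that scale understates the change of low genes. Cuffdiff, the authors' test, needs the reads. Ratios to paralogues and to marker means were compared by exact permutation. The code was tested on simulated data. Fragment numbers were estimated from the steps between low FPKM. They carry counting error, the error of the fitted depth and that of the division of reads among genes and transcripts. Each sample is its own pool of mice, and p-values measure the spread between 3 pools.

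The 10 genes and all lists were chosen from general knowledge with earlier results of these data known. Named are the 10 genes, their transcripts with at least 1 FPKM, the genes of the paralogue pairs, in each list up to 3 passing genes with the largest changes and the most abundant gene, and the 5 genes most like the set. Other genes (among them Sncg, Kif5c, Cntn1, Isl1, Sprr1a, Mki67 and the factors of newly formed neurons) and the Crmp1 forms below 1 FPKM were named after their values were seen. Some genes that this rule names in the lists are not reported here. Pseudocounts of 0.01 and 1, other filters and scalings, sample weights, a replicate block, each sample left out, a single or only coding transcripts per gene, an unadjusted p and a 2-fold minimum were tried. Family shares, the neuron markers lower in old mice as a reference, and the lists with each sample left out, no variance trend or the block were added after seeing the data. Shared 150-nt stretches were searched in the GENCODE M21 transcripts. Python 3.11.15, numpy 2.4.6, pandas 2.3.3, biopython 1.88 and matplotlib 3.10.9 were used.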

Additional observations from a re-analysis of the deposited data

How the results depend on the processing

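The number of the 10 genes past the threshold, 5, was 4 to 7 with either pseudocount, a minimum of 1 FPKM, median of ratios, quantile normalization, arrayWeights or coding transcripts only. It was 1 with no filter (25419 genes tested), 0 with no variance trend (9 at an unadjusted limma p below 0.05), 2 with the most abundant transcript, 9 with an unadjusted p and 1 with a 2-fold minimum. Leaving out a sample gave 0 to 4. Over all genes, 316 passed with no filter, 410 with no variance trend and 1381 with the most abundant transcript, in place of 1840. The median log2 change, -0.59, was -0.44 with a pseudocount of 1, -0.71 with quantile normalization and -0.47 with the most abundant transcript, and -0.74 to -0.58 with a sample left out. The single transcript past the threshold fell to 0 with a pseudocount of 0.01, no filter, median of ratios or no variance trend (8 or 9 at an unadjusted limma p below 0.05), was 0 to 1 with a sample left out (7 or 8 unadjusted), 8 with an unadjusted p and 0 with a 2-fold minimum. The 7 paralogue ratios without overlap numbered 6 to 8. The 2 genes without overlap against neuron markers became 4 against the neuron markers lower in old mice, chosen after seeing the data, a reference that shifts every gene upwards by its construction, and 2 to 6 with a sample left out. The cause of these changes was not tested. No direction of a called value turned. Of 168 log2 changes of single genes, 121 stayed on their side of the threshold, 40 lost and 7 gained it. Of 99 paralogue ratios 2, and of 110 values relative to marker means 9, moved by more than the spread between replicates. The calls among neuron, glia, immature neuron and macrophage genes, 16, 6, 8 and 13, numbered 2, 0 (7 glia genes at an unadjusted limma p below 0.05), 1 and 7 with no variance trend, and 14, 2, 2 and 12 with the block. Calls over all genes were 741 lower and 1099 higher, and 816 and 925 with quantile normalization.

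With the replicate number as a block, 3 of the 10 genes passed in place of 5, and 0 of their transcripts in place of 1 (8 at an unadjusted limma p below 0.05), and over all genes 730 passed in place of 1840. Of the 11 paralogue ratios, 9 had the same direction in all 3 numbered pairs. Over all tested genes, the correlations of deviations between same-numbered young and old samples were 0.02, -0.04 and 0.01. Such values cannot show whether a smaller number of genes shared a pairing. With the block, Stmn2 passed (adjusted p = 0.0438), and Crmp1 (0.0648), Dpysl3 (0.0815) and Marcksl1 (0.0599) did not. Depth limits Dcx and Gap43, which rested on 1 to 50.6 fragments in a library.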
